A study of Homo sapiens with 21 samples.

Results

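HepG2/C3A spheroids collected at Day 28 were compared with spheroids collected at Day 21, using 6 of the 21 libraries of the series, 3 at each day, and every measured gene. HepG2/C3A is a clonal human liver cell line derived from the hepatoma line HepG2; the cells are labelled wild type, and no drug is named. Cells were forced to aggregate in ultra-low attachment plates, and the spheroids grew on in a ClinoReactor, so the groups differ in time in culture. The other 15 libraries, 3 each of the 2D monolayer and of Days 3, 7, 10 and 14, serve here for the spread between replicates and for levels over time. Gene counts come from TempO-Seq, which joins 2 gene-specific oligos where they sit side by side on a transcript and counts the joined product. Replicates are labelled biological, with no word on separate cultures, and p-values therefore measure only the spread among these libraries, which may be technical.

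Hepatocytes secrete most plasma proteins, make bile acids and urea, store and release glucose, and detoxify foreign compounds; hepatoma lines keep these functions in part while they divide. In a spheroid, oxygen and nutrients reach the core by diffusion from the surface. Low oxygen stabilises HIF transcription factors, which raise genes of glycolysis and VEGFA, and amino acid shortage raises genes driven by ATF4. Insulin acting through AKT and FOXO lowers IGFBP1 and the genes of gluconeogenesis. Cells in S phase make histone mRNAs together with the enzymes of DNA synthesis.

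The Day 28 libraries held 18760232, 31997292 and 24331578 counts, against 35074956, 33924901 and 30582470 at Day 21, and Day 28 replicate 1 was the shallowest of all 21. Levels below are CPM, counts scaled to library sizes corrected by TMM. Hepatocyte markers were high at both days, with a summed level over 8 markers of 24400 to 34600 CPM at Day 28 and 28700 to 35100 CPM at Day 21. Of these 8 markers 2, TTR and SERPINA1, were called lower and none higher, against 8.49% lower over all genes tested. COL1A1, COL1A2, DCN, KDR, TEK, CLEC4M, PTPRC, CD163, MARCO and KRT7, markers of stromal, endothelial, blood and bile duct cells, had no counts in any of the 6 libraries. Other markers of the blood, macrophage and stromal lists were detected. The macrophage marker LYZ had 55.4, 53.1 and 62.0 CPM at Day 28, against 84.4, 67.2 and 70.5 CPM at Day 21, and was called lower. CD68 was at 24.2 to 32.9 CPM at Day 28 and 25.2 to 30.9 CPM at Day 21, CD14 at 3.86 to 4.31 CPM at Day 28 and 2.85 to 2.96 CPM at Day 21, and the stromal marker ACTA2 at 12.4 to 17.2 CPM at Day 28 and 13.9 to 18.1 CPM at Day 21. None of these 3 was called. The blood and macrophage list summed to 81.8 to 92.3 CPM at Day 28 and 95.3 to 118 CPM at Day 21. The 4 bile duct markers summed to 471 to 512 CPM at Day 28 and 676 to 691 CPM at Day 21, nearly all of it SOX9 and EPCAM, and 3 of them were lower at Day 28. In bulk RNA, fewer cells with a transcript and less transcript per cell cannot be told apart.

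Of 11641 genes tested, 1865 (16.0%) differed between the days, here termed called, at an adjusted p under 0.05 in edgeR's quasi-likelihood test with Benjamini-Hochberg adjustment over all genes tested. Of these, 877 (7.53%) were higher and 988 (8.49%) lower at Day 28. Scaling by library size alone turned this split round, with 979 higher and 769 lower, so that 56.0% of the calls were higher in place of 47.0%, and put the median log2 fold change of all genes at 0.05. Most changes were small, with a median absolute log2 fold change of 0.495 among the called genes. Only 96 genes (0.825%) were both called and at least 2-fold higher, and 160 (1.37%) at least 2-fold lower. The libraries of the days did not overlap for 3866 genes (33.2%). The number called depended on single libraries. It was 965 without Day 21 replicate 1, 906 without Day 21 replicate 2, 869 without Day 28 replicate 2 and 1082 without Day 28 replicate 3. In the first principal component, which held 43.13% of the variance, the libraries scored 16.64, 27.09 and 23.03 at Day 28 and -26.58, -23.87 and -16.32 at Day 21. The second, with 19.33%, set Day 28 replicate 1 at 30.76, against -8.55 and -15.42 for the other Day 28 libraries and -10.81 to 2.19 at Day 21.

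IGFBP1, a secreted binding protein of insulin-like growth factors (chr7:45888357-45893668, GENCODE 29 on GRCh38), had the largest rise among the genes named by size. It had 5008, 5004 and 4689 CPM at Day 28, against 1153, 1334 and 1317 CPM at Day 21. The groups were far apart and tight, with a log2 fold change of 1.97 ± 0.10 (SE, adjusted p = 3.03e-08 in edgeR). HAVCR1, a phosphatidylserine receptor known as a marker of kidney injury (chr5:157029413-157059119), had 54.6, 58.4 and 53.3 CPM at Day 28, against 21.0, 16.1 and 13.8 CPM at Day 21. Its log2 fold change was 1.73 ± 0.13 (adjusted p = 2.64e-06 in edgeR), with no overlap between the days, which the selection of the largest rises required. KCNMB3, an auxiliary subunit of a calcium-activated potassium channel, had 268, 197 and 230 CPM at Day 28, against 87.0, 82.7 and 72.9 CPM at Day 21. It changed by 1.53 ± 0.11 (adjusted p = 1.68e-06).

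MEP1A, a membrane-bound metalloprotease, rose by 1.32 ± 0.11 on the log2 scale (adjusted p = 5.79e-06 in edgeR), AAK1, a kinase of clathrin-coated vesicles, by 1.28 ± 0.19, and PABPC1L, which resembles other poly(A)-binding protein genes and may share counts with them, by 1.45 ± 0.16. DYSF, which takes part in membrane repair, was the least even of the largest rises. It had 23.2, 14.9 and 9.32 CPM at Day 28, against 6.20, 7.38 and 6.87 CPM at Day 21, with a log2 fold change of 1.22 ± 0.27 (adjusted p = 0.0108). The 12 largest rises, which also hold NDRG1, HAL, TAT and EGR1, were called in the same direction under all 16 alternative settings tried.

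**Figure D1:**
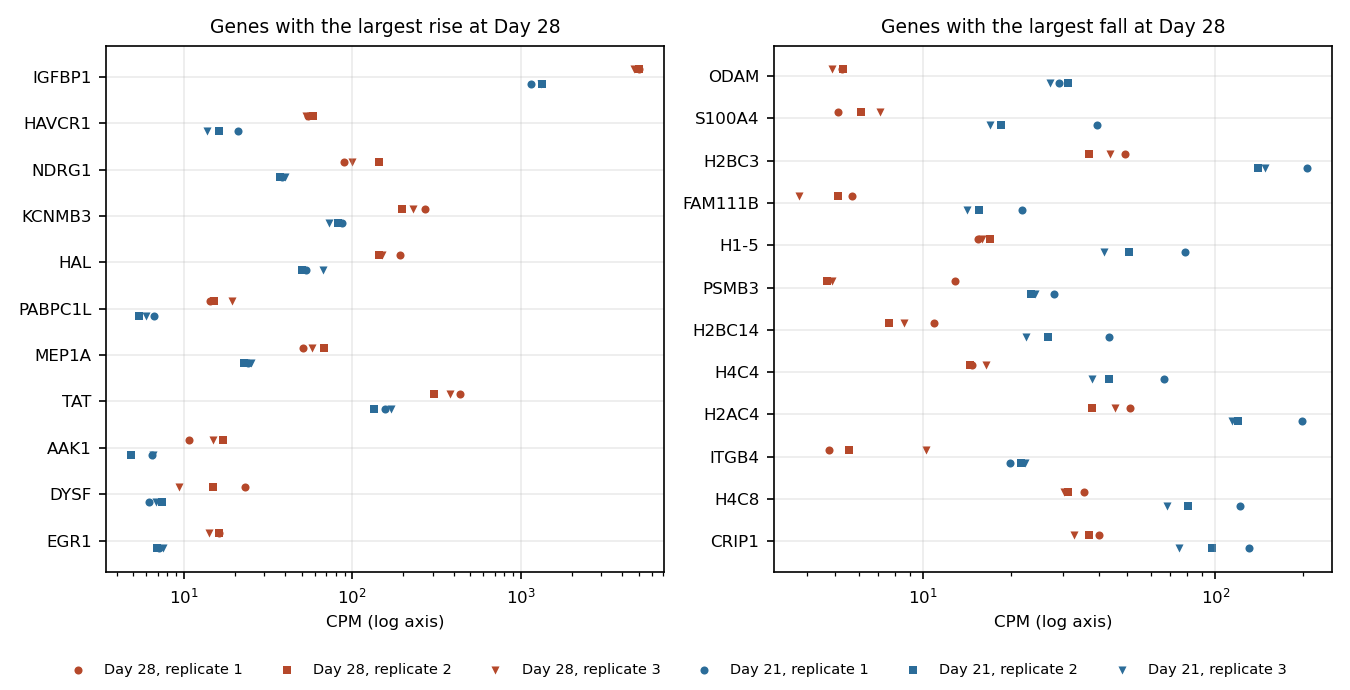
CPM of 11 of the 12 genes with the largest rise (left) and of the 12 with the largest fall (right) at Day 28 in each of the 6 libraries, on a log axis, with Day 28 in red above Day 21 in blue and a marker shape for each replicate. The days do not overlap for any gene shown, which the selection required; S100A4 and the histone genes are highest in Day 21 replicate 1, and PSMB3 is high in Day 28 replicate 1.

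ODAM, named for its protein in tooth enamel organs (chr4:70196496-70204576), had the largest fall. It had 5.28, 5.32 and 4.85 CPM at Day 28, against 29.1, 31.4 and 27.2 CPM at Day 21, a log2 fold change of -2.48 ± 0.13 (adjusted p = 3.03e-08 in edgeR). S100A4, a small calcium-binding protein (chr1:153543613-153550136), had 5.12, 6.11 and 7.10 CPM at Day 28, against 39.5, 18.5 and 17.0 CPM at Day 21. Day 21 replicate 1 was more than the other Day 21 libraries together. The log2 fold change of S100A4 was -2.00 ± 0.34 (adjusted p = 0.00763), and it missed the threshold without Day 28 replicate 1 (adjusted p = 0.0774) and with no filter on low counts (adjusted p = 0.0526). ITGB4, the integrin subunit of hemidesmosomes, had 4.75, 5.56 and 10.3 CPM at Day 28, against 19.9, 21.6 and 22.3 CPM at Day 21. It changed by -1.61 ± 0.22 (adjusted p = 0.00059).

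FAM111B, a serine protease, had 5.71, 5.09 and 3.77 CPM at Day 28, against 21.8, 15.6 and 14.1 CPM at Day 21, a change of -1.81 ± 0.19 (adjusted p = 3.23e-05 in edgeR). CRIP1, a LIM domain protein, had 40.0, 37.0 and 32.7 CPM at Day 28, against 130, 97.6 and 75.3 CPM at Day 21, a change of -1.45 ± 0.17 (adjusted p = 0.000376). Both genes were highest at Day 21 in replicate 1. PSMB3, a subunit of the proteasome core, had 12.8, 4.68 and 4.85 CPM at Day 28, against 28.0, 23.4 and 24.1 CPM at Day 21. Its change of -1.79 ± 0.36 (adjusted p = 0.0145) missed the threshold without Day 28 replicate 3 (adjusted p = 0.0508) and with no filter on low counts (adjusted p = 0.085). The other 6 of the 12 largest falls were histone genes.

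Replication-dependent histone genes were lower at Day 28 as a group. Of 65 such symbols 55 were tested, 44 of them on chromosome 6 and 11 on chromosome 1; 37 fell and none rose, against 8.49% lower over all genes tested. The list was drawn up after the falls had been seen, and its members resemble each other closely enough that single-gene values are uncertain. Its median log2 fold change was -0.96, against 0.00718 over all genes tested. All 5 classes took part, with 2 of 3 H1, 11 of 14 H2A, 10 of 13 H2B, 7 of 12 H3 and 7 of 13 H4 genes lower. Summed over the list, histone transcripts made 4790, 3884 and 3796 CPM at Day 28, against 9348, 6884 and 5829 CPM at Day 21. The sums did not overlap, and Day 21 replicate 1 was highest. Between 27 and 43 of these genes were lower when 1 library was left out, and 26 with no filter on low counts.

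H2BC3 had 49.0, 36.8 and 43.5 CPM at Day 28, against 205, 140 and 148 CPM at Day 21, with a log2 fold change of -1.92 ± 0.15 (adjusted p = 1.34e-05 in edgeR). H1-5, a linker histone, had 15.4, 16.9 and 15.9 CPM at Day 28, against 78.9, 50.7 and 41.6 CPM at Day 21. H2BC14 had 10.9, 7.63 and 8.62 CPM at Day 28, against 43.2, 26.8 and 22.5 CPM at Day 21. Each Day 21 library was above each Day 28 library for all of these genes, which their selection required. The fall was -1.81 ± 0.20 for H1-5 and -1.77 ± 0.23 for H2BC14 on the log2 scale.

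The promoters of these genes are shown because histone genes moved together and are known to carry CCAAT boxes, which bind the factor NF-Y. The sequences are the 250 bases before the start of each gene from RefSeq on GRCh38.p14, written 5′ to 3′ on the strand of the gene, with each CCAAT, or its reverse complement ATTGG, in capitals. H2BC3 lies on the minus strand at chr6:26043714-26043963, H1-5 on the minus strand at chr6:27867589-27867838 and H2BC14 on the plus strand at chr6:27814772-27815021.
H2BC3: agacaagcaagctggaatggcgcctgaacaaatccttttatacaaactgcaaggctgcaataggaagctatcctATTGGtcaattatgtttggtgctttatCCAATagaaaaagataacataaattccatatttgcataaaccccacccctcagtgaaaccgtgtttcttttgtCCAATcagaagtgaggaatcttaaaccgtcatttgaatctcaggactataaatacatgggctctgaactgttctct
H1-5: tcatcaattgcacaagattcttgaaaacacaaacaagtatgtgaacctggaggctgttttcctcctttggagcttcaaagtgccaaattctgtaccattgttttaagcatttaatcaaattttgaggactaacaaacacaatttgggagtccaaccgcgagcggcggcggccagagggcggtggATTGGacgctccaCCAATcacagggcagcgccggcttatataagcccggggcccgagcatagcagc
H2BC14: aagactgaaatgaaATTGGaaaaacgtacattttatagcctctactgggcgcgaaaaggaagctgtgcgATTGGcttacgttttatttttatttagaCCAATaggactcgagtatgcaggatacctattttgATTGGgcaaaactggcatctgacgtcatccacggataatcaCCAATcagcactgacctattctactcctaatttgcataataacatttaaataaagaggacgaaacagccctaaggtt
The windows held 3, 2 and 5 matches in the order shown. Over the 52 tested histone genes with a RefSeq promoter, 43 (82.7%) held the motif on either strand, against 33.0% of 27305 promoters of the same length. A match is a description of the letters and not of binding.

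Of 25 tested genes of DNA replication and nucleotide supply, 13 fell, 12 were not called and none rose, against 8.49% lower over all genes tested, and the list had a median of -0.47 on the log2 scale. RRM2, the small subunit of ribonucleotide reductase, had 8.06, 8.01 and 7.06 CPM at Day 28, against 28.9, 19.3 and 14.3 CPM at Day 21. The days did not overlap, and the change was -1.42 ± 0.21 (adjusted p = 0.000765 in edgeR). TK1, thymidine kinase, fell by 1.49 ± 0.29 on the log2 scale, at low levels of 1.51 to 2.40 CPM at Day 28 and 3.45 to 7.72 CPM at Day 21. TYMS, thymidylate synthase, had 403, 309 and 393 CPM at Day 28, against 682, 534 and 560 CPM at Day 21. The helicase subunits MCM3, MCM4, MCM5 and MCM6 and the origin licensing genes CDT1 and CDC6 were also lower, though all of them but CDT1 lost their call in 2 to 5 of the 16 alternatives.

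Of 24 tested genes of mitosis and the kinetochore 7 fell and none rose, against 8.49% lower over all genes tested, with a median of -0.40. CDK1, the mitotic kinase, had 89.8, 83.0 and 73.1 CPM at Day 28, against 165, 122 and 116 CPM at Day 21. KIF20A, a kinesin of cytokinesis, changed by -0.71 ± 0.15 (adjusted p = 0.00513 in edgeR). MKI67, a proliferation marker, was not called, with 22.4, 25.9 and 28.0 CPM at Day 28 and 35.9, 24.3 and 30.8 CPM at Day 21. For MKI67 the days overlapped. The replication count fell to 5 genes without Day 21 replicate 1, 7 without Day 28 replicate 2 and 6 without Day 28 replicate 3. The mitosis count fell to 4 without Day 21 replicate 1 and to 5 without Day 28 replicate 2 or 3. Leaving out any of these 3 libraries also lowered the number called over all genes tested. Of 20 genes of the p53 response 3 rose, against 7.53% over all genes tested, and none fell: GDF15 and SESN2, both also stress-induced, and the death receptor gene TNFRSF10B. CDKN1A was low, at up to 1.26 CPM, and was not called.

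Of 23 tested genes of hypoxia and glycolysis 8 rose, 15 were not called and none fell, against 7.53% higher over all genes tested, and the median log2 fold change was 0.34. NDRG1, a stress- and hypoxia-induced gene, had 88.7, 144 and 99.1 CPM at Day 28, against 38.3, 37.0 and 39.7 CPM at Day 21. Its Day 21 libraries were nearly equal, and it changed by 1.55 ± 0.15 (adjusted p = 6.65e-05 in edgeR). VEGFA, the vessel growth factor, had 311, 315 and 299 CPM at Day 28, against 200, 208 and 220 CPM at Day 21, a change of 0.58 ± 0.07 (adjusted p = 0.000162). EGLN3, an oxygen-sensing prolyl hydroxylase, changed by 1.29 ± 0.23, at low levels of 4.48 to 8.42 CPM at Day 28 and 2.61 to 2.76 CPM at Day 21.

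LDHA, lactate dehydrogenase A, had 309, 376 and 311 CPM at Day 28, against 264, 234 and 230 CPM at Day 21, a change of 0.47 ± 0.09 (adjusted p = 0.003 in edgeR). ALDOA, PDK1, HK2 and PGK1 were the other members that rose, by 0.34 to 0.46 on the log2 scale, and HK2 and PGK1 overlapped between the days. CA9, a carbonic anhydrase induced in low oxygen, had at most 0.374 CPM and was not tested. Day 28 replicate 2 stood above the other Day 28 libraries in 21 of the 23 genes, with a median log2 difference of 0.20. The number of higher genes ranged from 5 without Day 28 replicate 2 to 10 without Day 28 replicate 1. Searches for the core of the hypoxia response element, ACGTG on either strand, matched 10 of 20 promoters of the list, against 18.7% of all promoters. The LDHA promoter, on the plus strand at chr11:18394313-18394562, is shown because this gene rose and its window holds the motif. Capitals mark ACGTG or its reverse complement CACGT, and where they overlap they read CACGTG.
LDHA: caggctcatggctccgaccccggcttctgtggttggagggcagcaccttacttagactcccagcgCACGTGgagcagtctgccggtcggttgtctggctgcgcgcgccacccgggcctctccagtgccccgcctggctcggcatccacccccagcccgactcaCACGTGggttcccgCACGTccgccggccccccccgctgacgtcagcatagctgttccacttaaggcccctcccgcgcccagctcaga
The LDHA window held 5 matches over both strands, and the window of EGLN3 held 0.

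The ATF4 amino acid response rose in 11 of 26 tested genes, against 7.53% over all genes tested, and fell in none, with a median log2 fold change of 0.32. CTH, which makes cysteine, had 67.3, 81.3 and 78.0 CPM at Day 28, against 39.8, 39.4 and 34.6 CPM at Day 21. The change was 1.01 ± 0.10 (adjusted p = 1.53e-05 in edgeR), and the days were well apart. SLC7A11, the cystine transporter, had 16.9, 19.9 and 18.5 CPM at Day 28, against 9.67, 7.38 and 10.3 CPM at Day 21. TRIB3, a pseudokinase induced by ATF4 and CHOP, had 9106, 6431 and 6920 CPM at Day 28, against 5465, 5801 and 4428 CPM at Day 21. It changed by 0.53 ± 0.14 and missed the threshold without Day 21 replicate 1 (adjusted p = 0.061 in edgeR) or Day 21 replicate 3 (0.0556). DDIT3, which encodes CHOP, PPP1R15A, CHAC1, STC2 and the transporter genes SLC3A2 and SLC7A1 rose too. ALDH1L2, the member with the largest change at 1.10 ± 0.32, was low, and 1 of its Day 28 libraries was at 1.75 CPM beside up to 1.71 CPM at Day 21. It lost its call in 9 of the 16 alternatives, with an adjusted p of 0.108 in limma voom, 0.0798 when all 21 libraries shared the edgeR fit and 0.15 without Day 28 replicate 3. Without 1 library, 8 to 12 members were called higher. The core of the amino acid response element, TGATG on either strand, was in 5 of 22 promoters of this list, against 29.2% of all promoters. Among 21 genes of endoplasmic reticulum chaperones and the unfolded protein response, 3 rose and 2 fell. Over all genes tested 7.53% were higher and 8.49% lower. ERN1, the sensor IRE1, was at 6.99, 7.05 and 9.51 CPM at Day 28, against 3.39, 3.63 and 3.96 CPM at Day 21.

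Immediate early genes, which growth factors and stress induce quickly, rose in 8 of 18, against 7.53% over all genes tested, and fell in none, with a median of 0.41. EGR1, a zinc finger transcription factor, had 16.3, 16.2 and 14.1 CPM at Day 28, against 7.09, 6.96 and 7.57 CPM at Day 21. The libraries of each day were close together, and the change was 1.12 ± 0.14 (adjusted p = 0.000103 in edgeR). DUSP5, a MAP kinase phosphatase, changed by 1.14 ± 0.25 at 3.14 to 4.06 CPM at Day 28 and 1.37 to 2.10 CPM at Day 21. JUN, KLF6, SPRY4, FOSL1, DUSP1 and MYC also rose. Between 6 and 8 members were called higher when 1 library was left out.

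**Figure D2:**
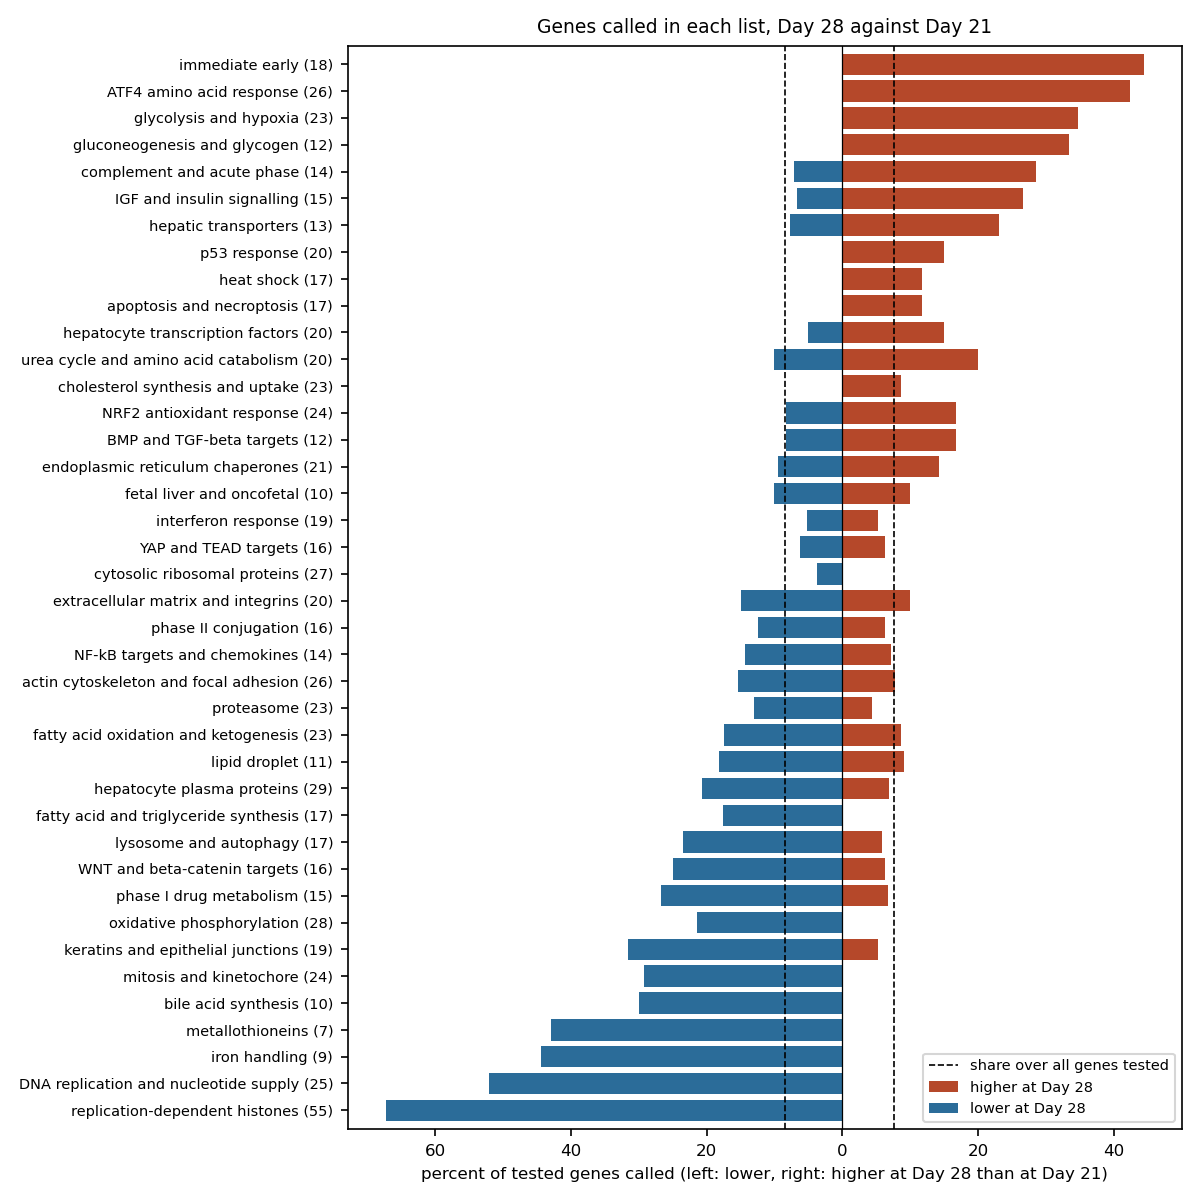
Percent of the tested genes of each list that were called higher (red, to the right) or lower (blue, to the left) at Day 28, with the number tested in brackets and dashed lines at 7.53% and 8.49%, the shares over all genes tested. Immediate early, ATF4, hypoxia and gluconeogenesis genes lie furthest to the right with none called lower, and histone and DNA replication genes furthest to the left.

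Enzymes of amino acid breakdown and of glucose output were among the genes that rose. HAL, histidine ammonia-lyase, the first enzyme of histidine breakdown (chr12:95972662-95996365), had 193, 145 and 150 CPM at Day 28, against 53.4, 50.5 and 66.6 CPM at Day 21. The change was 1.53 ± 0.12 (adjusted p = 7.76e-06 in edgeR). TAT, tyrosine aminotransferase, a glucocorticoid-induced enzyme (chr16:71565660-71577130), had 435, 307 and 382 CPM at Day 28, against 156, 135 and 169 CPM at Day 21. Neither gene overlapped between the days, as the selection required, and both were highest at Day 28 in replicate 1. Of 20 tested genes of the urea cycle and amino acid catabolism 4 rose, against 7.53% over all genes tested, and 2 fell, a share near the 8.49% lower over all genes tested. The lower genes included ASS1 of the urea cycle, at -0.71 ± 0.12. The number that rose was 2 without Day 21 replicate 2, Day 21 replicate 3 or Day 28 replicate 3. CPS1, which starts the urea cycle, had 9.87, 13.4 and 10.4 CPM at Day 28 and 9.36, 8.37 and 10.5 CPM at Day 21 and was not called.

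Of 12 tested genes of gluconeogenesis and glycogen 4 rose, against 7.53% over all genes tested, and none fell, and 2 rose without Day 21 replicate 2 or without Day 28 replicate 2. G6PC, glucose-6-phosphatase, had 39.5, 20.0 and 27.0 CPM at Day 28, against 15.4, 16.5 and 15.3 CPM at Day 21. PCK1, phosphoenolpyruvate carboxykinase, had 18.8, 12.5 and 8.27 CPM at Day 28, against 7.81, 4.71 and 6.32 CPM at Day 21. The Day 28 libraries varied widely, with replicate 1 highest for both. The change was 0.88 ± 0.20 for G6PC and 1.08 ± 0.27 for PCK1 (adjusted p = 0.0106 and 0.0206 in edgeR), and PCK1 missed the threshold without Day 21 replicate 2 (adjusted p = 0.0729), Day 21 replicate 3 (0.0634) or Day 28 replicate 2 (0.0571) and with no filter on low counts (0.0531).

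Against 7.53% higher and 8.49% lower over all genes tested, 4 of 15 tested genes of IGF and insulin signalling rose and 1 fell. Besides IGFBP1 these were KLF15, a transcription factor of fasting, DEPTOR, an inhibitor of mTOR, and IGFBP3, which stayed under 2 CPM and lost its call without Day 21 replicate 3 (adjusted p = 0.0568 in edgeR), Day 28 replicate 2 (0.0911) or Day 28 replicate 3 (0.0976). KLF15 had 100, 90.4 and 71.7 CPM at Day 28, against 47.8, 47.2 and 49.0 CPM at Day 21, a change of 0.88 ± 0.11 (adjusted p = 0.000108 in edgeR). FOXO3 was lower, at -0.23 ± 0.07, close to the threshold (adjusted p = 0.0487 in edgeR). It lost its call in 7 alternatives, which were library size alone (0.11), no filter on low counts (0.0602) and the fits without any 1 library other than Day 28 replicate 1 (0.0756 to 0.17). PPARGC1A, the coactivator PGC-1 alpha, rose by 0.50 ± 0.11 and CPT1A, which brings fatty acids into mitochondria, by 0.91 ± 0.14. IGF2, a growth factor of fetal liver, had 527, 683 and 646 CPM at Day 28, against 372, 396 and 477 CPM at Day 21.

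The main hepatocyte markers ALB, AFP and HNF4A were not called. ALB, serum albumin, had 10500, 8764 and 6864 CPM at Day 28 and 10260, 11300 and 7673 CPM at Day 21, overlapping widely (log2 fold change -0.15 ± 0.16). AFP, alpha-fetoprotein, had 13590, 7854 and 9101 CPM at Day 28 and 12370, 10830 and 10130 CPM at Day 21. Its change was -0.11 ± 0.17. Without Day 28 replicate 1, the highest of the 6 libraries compared, AFP was called lower at Day 28, at -0.37 (adjusted p = 0.0168 in edgeR). HNF4A, a master regulator of hepatocyte genes, had 28.0, 24.0 and 23.4 CPM at Day 28 and 24.3, 21.9 and 20.8 CPM at Day 21. Of 20 hepatocyte transcription factors 3 rose and 1, RXRA, fell, against 7.53% higher and 8.49% lower over all genes tested. The number of rises was 1 without Day 21 replicate 1, Day 21 replicate 2 or Day 28 replicate 3, and 0 without Day 28 replicate 2.

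Of 29 tested plasma protein genes 2 rose and 6 fell, against 7.53% higher and 8.49% lower over all genes tested. The list had a median log2 fold change of -0.11. FGB, the fibrinogen beta chain (chr4:154562956-154571086), had 1309, 859 and 815 CPM at Day 28, against 643, 612 and 596 CPM at Day 21. Its change of 0.71 ± 0.15 (adjusted p = 0.00963 in edgeR) was 0.46 without Day 28 replicate 1. FGA, the alpha chain, had 3523, 3124 and 2871 CPM at Day 28 and 2451, 2993 and 2653 CPM at Day 21 and was not called (adjusted p = 0.123), though it passed when all 21 libraries shared the fit (adjusted p = 0.034), in the fit of the spheroid libraries (0.0245) and under scaling by library size alone (0.038). TTR, transthyretin, had 1261, 861 and 1024 CPM at Day 28, against 1850, 1709 and 1430 CPM at Day 21, a change of -0.65 ± 0.13 (adjusted p = 0.0046). HPX, ITIH2, SERPINA1, APOH and APOE fell as well. The number of plasma protein genes called lower was 12 without Day 28 replicate 1, and 2 without Day 21 replicate 1, Day 21 replicate 2, Day 28 replicate 2 or Day 28 replicate 3.

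Of 10 tested genes of bile acid synthesis 3 fell and none rose. The counts of this paragraph stand against 7.53% higher and 8.49% lower over all genes tested. CYP27A1, a sterol hydroxylase of the acidic pathway, had 489, 390 and 392 CPM at Day 28, against 610, 617 and 554 CPM at Day 21, and BAAT, which conjugates bile acids, changed by -0.82 ± 0.15 (adjusted p = 0.00227 in edgeR). CYP7A1, the rate-limiting enzyme, was at 1.11 to 1.49 CPM at Day 28 and 1.47 to 2.58 CPM at Day 21 and was not called. Of 15 phase I drug metabolism genes 1 rose and 4 fell, among them ALDH1A1 at -0.52 ± 0.09 and EPHX1 at -0.44 ± 0.08. CYP3A4 had at most 1.06 CPM and was not called. Of 13 hepatic transporters 3 rose, the bile acid exporter subunit SLC51A, SLC22A9 and the sterol exporter subunit ABCG5, and 1 fell. SLC51A had 41.6, 25.9 and 26.9 CPM at Day 28, against 17.5, 15.4 and 17.2 CPM at Day 21.

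Of 23 cholesterol genes 2 rose, against 7.53% over all genes tested, and none fell, among them SREBF2, a transcription factor of sterol synthesis. It did not overlap between the days and changed by 0.51 ± 0.11 (adjusted p = 0.00549 in edgeR). Of 17 genes of fatty acid and triglyceride synthesis 3 fell, DGAT1, DGAT2 and AGPAT2, against 8.49% lower over all genes tested, although the median of that list was 0.10. Among 11 genes of the lipid droplet, PLIN5 rose, and CIDEC and CIDEB fell. CIDEB, at -0.42 ± 0.13, overlapped between the days and lost its call without Day 21 replicate 1 or 2 or Day 28 replicate 2 or 3. Of 23 genes of fatty acid oxidation and ketogenesis 2 rose and 4 fell. For this list and the lipid droplet list, the shares over all genes tested were likewise 7.53% higher and 8.49% lower.

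TNFRSF19, a WNT target and receptor (chr13:23570370-23676104), had 16.3, 19.2 and 23.6 CPM at Day 28, against 54.5, 56.0 and 52.5 CPM at Day 21, a change of -1.44 ± 0.12 (adjusted p = 5.79e-06 in edgeR). Along with it LGR5, NOTUM and GLUL fell among 16 WNT and beta-catenin targets, and SOX4 rose. Of 19 keratin and junction genes 6 fell and 1 rose. Both lists stand beside 8.49% lower and 7.53% higher over all genes tested. CDH1, E-cadherin, had 45.3, 24.2 and 30.6 CPM at Day 28, against 56.2, 63.8 and 59.4 CPM at Day 21, and CLDN2, a pore-forming claudin, and CDH2, N-cadherin, were lower too. CDH1 missed the threshold with no filter on low counts (adjusted p = 0.058 in edgeR) and without Day 28 replicate 3 (0.0683), and GLUL in 6 of the 16 alternatives (0.0563 to 0.131).

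The metallothioneins, metal-binding proteins with near-identical copies whose values are uncertain, had 3 of 7 genes lower and a median of -1.07. Over all genes tested 8.49% were lower and 7.53% higher, the shares to set beside each list of this paragraph. MT1G had 23.6, 13.7 and 18.5 CPM at Day 28, against 63.1, 39.7 and 33.3 CPM at Day 21, and Day 21 replicate 1 was highest. It missed the threshold with no filter on low counts (adjusted p = 0.096 in edgeR) and without Day 28 replicate 3 (0.065). Of 9 iron genes 4 fell, and 2 without Day 21 replicate 1, Day 21 replicate 2 or Day 28 replicate 2. SLC40A1, the iron exporter ferroportin, had 77.6, 56.3 and 75.8 CPM at Day 28, against 144, 135 and 127 CPM at Day 21, a change of -0.94 ± 0.11 (adjusted p = 8.91e-05 in edgeR). NQO1, an antioxidant enzyme induced by NRF2, had 2842, 2489 and 2772 CPM at Day 28, against 4852, 4472 and 4327 CPM at Day 21. Other NRF2 genes went the other way: SRXN1, GCLM, GCLC and AKR1C2 rose, so the list of 24 had 4 higher and 2 lower. Without Day 28 replicate 1 it had 6 lower, and without Day 21 replicate 1 or 2, or Day 28 replicate 2 or 3, it had 1. ACTB, cytoskeletal actin, had 107, 122 and 110 CPM at Day 28 and 128, 113 and 109 CPM at Day 21 and was not called.

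Several of the genes that rose or fell did not follow a steady course over the earlier days. IGFBP1 had a mean of 3570 CPM at Day 14, 1270 at Day 21 and 4900 at Day 28. NDRG1 had means of 85.2, 38.4 and 111 CPM on the same days. For these genes Day 21 was low between higher neighbours, while TNFRSF19, at 30.6, 54.4 and 19.7 CPM, and ODAM, at 14.8, 29.2 and 5.15 CPM, were high at Day 21. HAL, at 42.8, 56.8 and 163 CPM, and FGB, at 398, 617 and 994 CPM, stepped upward over these 3 days. The histone sum averaged 6370 CPM at Day 14, 7350 at Day 21 and 4160 at Day 28, below the 24500 CPM of Day 10 and above the 2540 CPM of the monolayer. No test of Day 21 against Day 14 was made here.

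**Figure D3:**
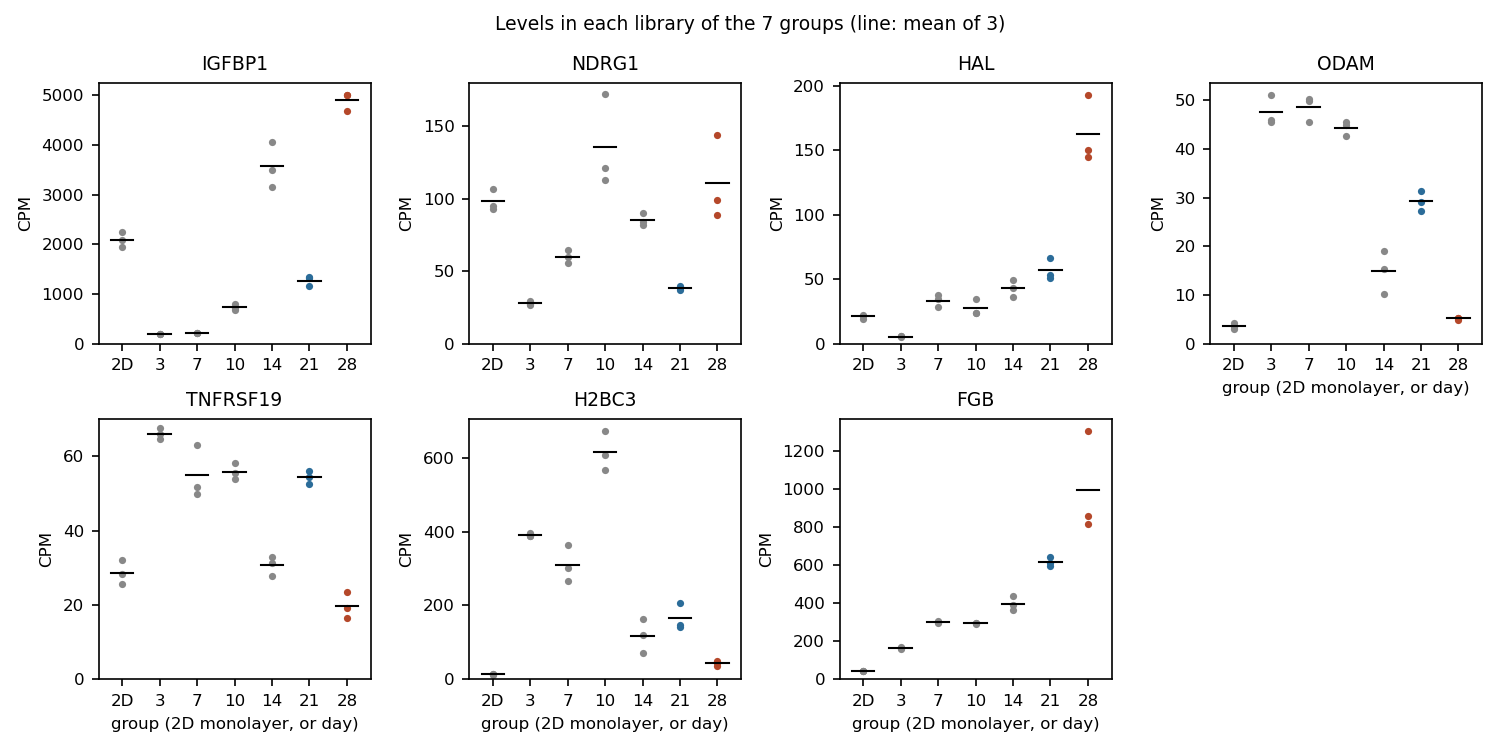
CPM of 7 genes in each library of the 7 groups, with the monolayer (2D) first and then days in order, Day 21 in blue and Day 28 in red, and a line at the mean of 3 libraries. IGFBP1 and NDRG1 are low at Day 21 beside Days 14 and 28, ODAM and TNFRSF19 are higher at Day 21 than at either, and 1 Day 28 library of FGB lies above the other 2.

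The spread between replicates was measured as the median absolute log2 difference between 2 libraries of a group, over genes with at least 50 counts in each library of that group. Its mean over the 3 pairs was 0.105 ± 0.018 (SD of the pairs) in the monolayer. Over the spheroid days, from Day 3 to Day 14, it was 0.0929, 0.108, 0.124 and 0.127, followed by 0.138 ± 0.020 for Day 21 and 0.154 ± 0.036 for Day 28. The pairs of a group share libraries, so these SDs are descriptions and no test was made. The means put the widest spread at Days 28 and 21, but not in every pair. At Day 28, replicate 1 differed from replicates 2 and 3 by 0.175 and 0.176, while replicates 2 and 3 differed by 0.113, within the range of the earlier days. At Day 21 the pairs were 0.115, 0.153 and 0.146. When all libraries were thinned to the smallest total, the means were 0.155 at Day 28 and 0.137 at Day 21, and still the widest. In the tail, Days 28 and 21 were close to Day 14 and above the other groups. Genes with at least a 2-fold range between replicates made up 0.883% (Day 28), 0.824% (Day 21) and 0.839% (Day 14). Their share was smaller in the monolayer (0.296%) and in the earlier spheroids (Day 3, 0.249%; Day 7, 0.499%; Day 10, 0.628%).

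Most of the Day 28 genes with 1 library apart belonged to replicate 1. It lay at least 1.5-fold from both others for 195 genes (2.13% of 9170), 123 of them below and 72 above, against 56 genes for replicate 2 and 43 for replicate 3. At Day 21 the counts were 144 for replicate 1, 73 for replicate 2 and 90 for replicate 3, and at Day 14, replicate 3 had 179. The BCV, the biological coefficient of variation of the fit, was 11.6% over the 6 libraries, against 9.62% when all 21 shared it.

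**Figure D4:**
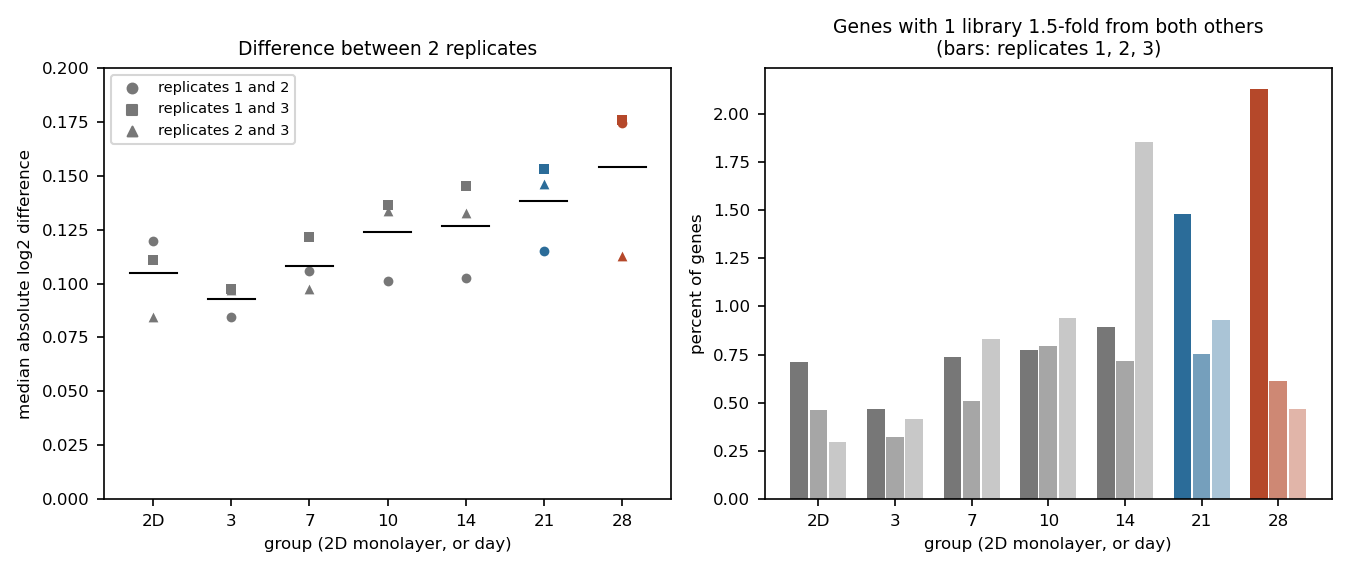
Left, the median absolute log2 difference between each pair of replicates in the 7 groups, in order of day, with a line at the mean of the 3 pairs; right, the percent of genes for which 1 library lies at least 1.5-fold from both others, with bars for replicates 1, 2 and 3 from left to right. The 2 Day 28 pairs with replicate 1 are at 0.175 and 0.176 and the other at 0.113, and replicate 1 of Day 28 has the tallest bar at 2.13%.

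The libraries that stood apart did so in gene groups, some of them shared by replicate 1 of both days. Day 28 replicate 1 was above the other Day 28 libraries in plasma proteins, with a median log2 difference of 0.29, and in histones, with 0.33. It was below them in fetal liver genes (-0.39), YAP and TEAD targets (-0.35) and WNT targets (-0.32). Day 21 replicate 1 was above the other Day 21 libraries in metallothioneins (0.70), histones (0.59), DNA replication (0.52) and mitosis (0.47), while all genes tested had a median of 0.01. Histones were thus higher in replicate 1 of both days, in 47 of 55 genes at Day 28 and 52 of 55 at Day 21. Metallothioneins (0.20 at Day 28) and phase II genes (0.20 at Day 28 and 0.19 at Day 21) were also higher in both. Day 21 replicate 1 had the highest histone sum. Without it the counts of replication and mitosis genes called lower at Day 28 shrank, as given above. They also shrank without Day 28 replicate 2 or 3. The count over all genes fell too, from 988 lower to 526 without Day 21 replicate 1, 462 without Day 28 replicate 2 and 588 without Day 28 replicate 3. For ATF4 genes this median lay between -0.02 and 0.08 in the 6 libraries. Members above and below the other libraries cancel in such a median.

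**Figure D5:**
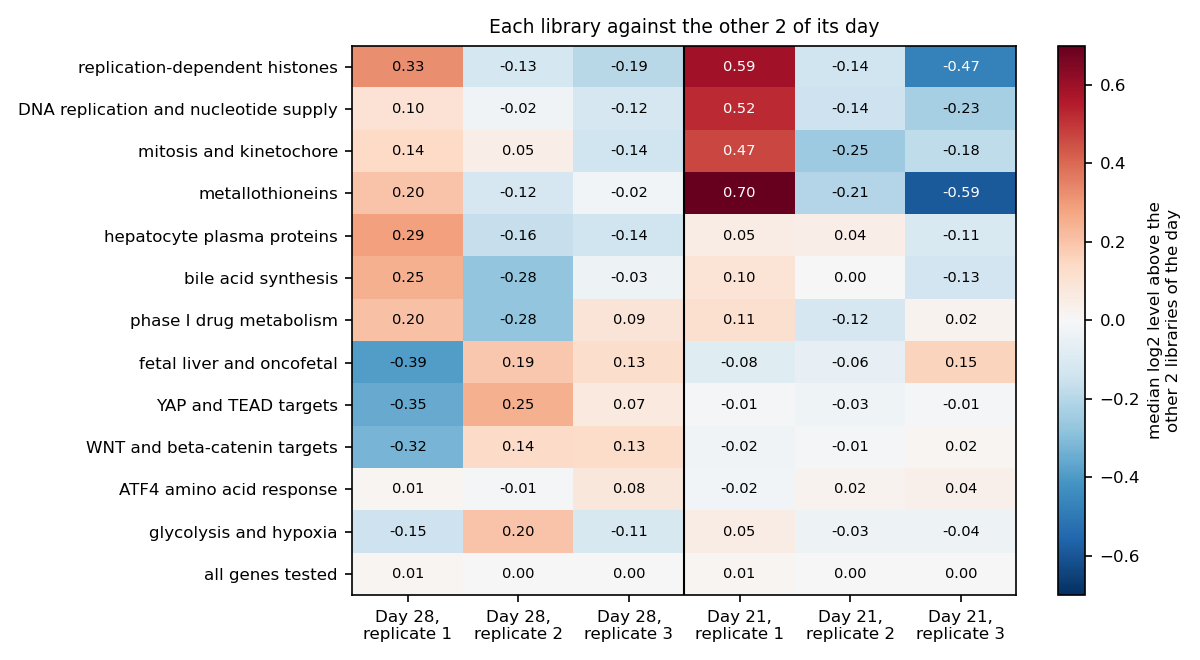
Median log2 level of 12 gene lists and of all genes tested in each library, relative to the mean of the other 2 libraries of its day, with Day 28 on the left and Day 21 on the right. Red cells are above and blue below; histones, replication, mitosis and metallothioneins are reddest in Day 21 replicate 1, and fetal liver, YAP and WNT genes are bluest in Day 28 replicate 1.

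The spread within a list differed between the days for some lists and little for others, such as ATF4 genes, at 0.14 at Day 28 and 0.13 at Day 21. The median SD of log2 CPM over phase I drug metabolism genes was 0.36 at Day 28 and 0.13 at Day 21, and over YAP and TEAD targets it was 0.32 at Day 28 and 0.14 at Day 21. For metallothioneins the medians were 0.27 at Day 28 and 0.48 at Day 21, and for histones 0.24 at Day 28 and 0.38 at Day 21. Over all genes tested they were 0.16 at Day 28 and 0.14 at Day 21. These are descriptions of 3 libraries a day and were not tested.

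The genes with the widest spread among those of at least 10 CPM were mostly not called. At Day 28, ERGIC2, a protein of the early secretory pathway, had 17.9, 69.4 and 9.04 CPM, against 19.9, 19.1 and 26.0 CPM at Day 21. HS6ST2, which sulfates heparan sulfate, had 110, 228 and 69.7 CPM at Day 28, against 63.7, 88.0 and 82.6 CPM at Day 21. In both, replicate 2 was the high library. RANBP3 had 96.1, 39.2 and 28.0 CPM at Day 28, against 31.0, 38.3 and 43.8 CPM at Day 21, and TNFSF10, the death ligand TRAIL, had 20.2, 7.60 and 9.04 CPM at Day 28, against 7.12, 6.51 and 9.20 CPM at Day 21. CDO1, cysteine dioxygenase, was likewise high in replicate 1 alone at Day 28. For ERGIC2 and RANBP3 single high libraries were also seen in other groups. ERGIC2 had 118 CPM in replicate 2 of the monolayer, 77.0 CPM in Day 10 replicate 2 and 80.7 CPM in Day 14 replicate 3, and RANBP3 had 108 CPM in replicate 1 of the monolayer, 87.7 CPM in Day 3 replicate 3, 95.8 CPM in Day 10 replicate 1 and 93.2 CPM in Day 14 replicate 3.

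NDUFB5, of respiratory complex I, did not overlap between the days, at 5.18, 19.3 and 9.35 CPM at Day 28, against 26.5, 39.7 and 25.7 CPM at Day 21, yet its change of -1.39 ± 0.49 missed the threshold (adjusted p = 0.129 in edgeR). It passed without Day 28 replicate 2, at -2.04 (adjusted p = 0.00157), and with a replicate block, at -1.53 (adjusted p = 0.000529). Replicate 2 was its highest library in each of the 7 groups. FNDC4 and NBPF8, the second a member of a family of near-identical copies, completed the 8 widest at Day 28.

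Among the widest genes of Day 21, LCN15, a lipocalin, had 9.50, 7.25 and 7.06 CPM at Day 28, against 43.1, 12.4 and 9.84 CPM at Day 21. AREG, the growth factor amphiregulin, had 19.6, 18.6 and 18.2 CPM at Day 28, against 20.6, 8.97 and 7.73 CPM at Day 21. Replicate 1 was the high Day 21 library in both, and also in S100A4, DUT, H3C13 and MT2A. PABPC3, which may share counts with its relatives, was low in Day 21 replicate 3, and URB2 was high there. Of the 8 widest genes at Day 21, S100A4 and DUT, which clears dUTP, were called lower at Day 28, and of the 8 widest at Day 28 none was called. DUT missed the threshold without Day 28 replicate 1 or without Day 28 replicate 3 (adjusted p = 0.0648 in both, in edgeR). NBPF8 passed it, as higher at Day 28, in 5 of the 16 alternatives (adjusted p of 0.00219 to 0.0468), and TNFSF10 when all 21 libraries shared the fit (0.0476). LCN15 passed as lower in that fit (0.0464) and with a replicate block (0.0456), AREG as higher with a replicate block (0.0391) and without Day 21 replicate 1 (0.000465), and URB2 as lower without Day 21 replicate 2 (0.0071).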

How the data were processed

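The authors deposited raw counts per gene symbol, all of them whole numbers. Per the labels' protocols, the same amount of total RNA went into each TempO-Seq reaction. Of tools and build, GEO lists fastp 0.23.2, STAR 2.7.10b, bcl2fastq 2.20.422, GRCh38.p13 and DESeq2 1.38.0, per the submitters' processing notes, with no roles. A probe reads a short stretch of a transcript, so levels compare libraries, not genes, and near-identical genes can share counts.

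From 19683 symbols, filterByExpr (minimum count 10) over the 6 libraries kept 11641 genes; those removed held 0.0227% of counts. They were scaled by TMM and fitted by robust quasi-likelihood (edgeR 4.0.16, R 4.3.3) with 4 residual degrees of freedom and called at an adjusted p under 0.05. CPM use TMM sizes over 21 libraries. As a check of the code, the fit was also run on counts simulated with known changes, and the outcome is not given here. Alternatives used DESeq2 1.42.0, limma 3.58.1, other scalings, filters and libraries, and a replicate block.

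The 39 gene lists came from textbook knowledge; they and the comparison were chosen with earlier results of these data known, and a list of histone genes was added after the falls were seen. Of 824 listed genes 822 had counts and 716 were tested. The rule for named genes took the 12 largest rises and falls whose mean reached 10 CPM and whose days did not overlap, up to 3 called members of each list, 12 fixed genes and the 8 of widest spread at each day, 124 in all, of which some are not reported here; other list members are named to complete a count. Locations were matched by symbol in GENCODE 29 on GRCh38.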

Additional observations from a re-analysis of the deposited data

How the results depend on the processing

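With 3 libraries a day the number of called genes depended on the spread assumed. It was 2964 when all 21 libraries shared the spread, 1724 of them lower at Day 28, and 2879 in the fit of the 18 spheroid libraries, 1316 of them higher and 1563 lower. Limma voom with sample weights called 2829, of which 1356 were higher and 150 at least 2-fold higher. With at least 50 counts in 3 libraries, 61 genes were at least 2-fold higher. DESeq2 called 2049, RLE factors 1865, library size alone 1748 (979 higher, 769 lower), no filter 2096 and thinned counts 1701. Leaving out 1 library gave 869 to 2706 called genes, 389 to 1256 higher, 462 to 1450 lower, 58 to 128 at least 2-fold higher and 103 to 184 at least 2-fold lower. Of 221 called members of the gene lists, 110 lost their call under at least 1 of the 16 alternatives, 108 of them when 1 library was left out. Whether replicate numbers pair the libraries is not stated in the labels. Deviations of same-numbered libraries correlated at 0.0633, -0.0104 and 0.121, and those of differently numbered libraries at -0.148 to 0.0844. The highest value was that of replicate 3 at both days, while Day 28 replicate 1 correlated best with Day 21 replicate 2. A replicate block called 2423 genes. Genes whose sign changed were not called in the fits that changed it: ACTB at 0.018 with library size alone, 0.042 without Day 21 replicate 1 and 0.0069 without Day 28 replicate 1, PABPC3 at -0.11 without Day 21 replicate 3, RANBP3 at -0.15 without Day 28 replicate 1, and AFP at 0.048 and ERGIC2 at -0.68 without Day 28 replicate 2. Leaving out 1 library gave ACTB -0.082 to 0.042, PABPC3 -0.11 to 0.50, RANBP3 -0.15 to 0.85, AFP -0.37 to 0.048 and ERGIC2 -0.68 to 1.04; AFP at -0.37 was called. The cause was not tested. The spread at Day 21 was 0.110 over genes with at least 500 counts, and 0.124 at Day 28; Day 28 stayed above Day 21 in each of the other settings tried. Low genes, such as CYP3A4, are limited by counting error.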

Other observations

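Of 28 tested genes of oxidative phosphorylation 6 were lower at Day 28, by 0.25 to 0.38 on the log2 scale, and none higher. Shares over all genes tested, for each list of this section, were 8.49% lower and 7.53% higher. COX5A, of cytochrome c oxidase, had 484, 399 and 379 CPM at Day 28, against 551, 576 and 538 CPM at Day 21, and lost its call without Day 21 replicate 2, Day 28 replicate 2 or Day 28 replicate 3. No gene of this list was called without Day 21 replicate 2 or without Day 28 replicate 3. Of 17 lysosome and autophagy genes 4 fell, among them the membrane protein genes LAMP1 and LAMP2, and 1 rose. LAMP1 lost its call in 6 of the 16 alternatives. The 4 became 2 without Day 21 replicate 1, Day 21 replicate 2 or Day 28 replicate 2. The gene that rose was MAP1LC3B, which coats autophagosomes, with 1065, 1240 and 1295 CPM at Day 28, against 685, 683 and 786 CPM at Day 21 (log2 fold change 0.76 ± 0.10, adjusted p = 0.000136 in edgeR). Of 27 cytosolic ribosomal protein genes 1 was called, RPL7, which has many near-identical copies.

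Complement and acute phase genes were mixed, with 4 of 14 tested genes higher and 1 lower, against 7.53% and 8.49% over all genes tested. C8A and C8B, subunits of the membrane attack complex, rose at low levels, by 0.96 ± 0.19 and 0.74 ± 0.23. C8B lost its call when all 21 libraries shared the fit (adjusted p = 0.0621 in edgeR) and without Day 21 replicate 1 (0.116), Day 21 replicate 2 (0.108), Day 21 replicate 3 (0.0758) or Day 28 replicate 2 (0.236). C5 and ORM1 rose by 0.35 and 0.30, while HP, haptoglobin, fell by 0.38. Without Day 21 replicate 1, Day 21 replicate 2 or Day 28 replicate 2, 2 of these 14 genes rose. CCL20, a chemokine, had 186, 220 and 209 CPM at Day 28, against 137, 139 and 130 CPM at Day 21, and was the only called riser among 14 NF-kB targets and chemokines. In the same list 2 genes fell, CXCL8 by 1.18 and TNFAIP3 by 0.45 on the log2 scale. CXCL8 was low, at up to 1.65 CPM. CXCL8 lost its call in 9 of the alternatives and TNFAIP3 in 6. Of 19 interferon response genes 1 rose and 1 fell.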
